A study of Arabidopsis thaliana with 12 samples.

Results

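STZ (AT1G27730) and AT2G28200 are Arabidopsis thaliana genes for C2H2 zinc finger proteins, and they were selected on their wild type intensities because their transcripts moved in opposite directions when wild type seedlings met chitooctaose. They are 2 of the 13350 genes that the annotation used here ties to a probe set of their own. Of the genes on lists of C2H2 zinc finger genes, 28 are tied so, and they are 2 of these. Each of the pair is read by 1 probe set, tied to that gene alone. The annotation leaves 8730 of 22746 probe sets unnamed, so a gene counted as not measured may still have a probe set. The wild type response selected the pair, so its values are given below as a description without a test. Only the response of the receptor mutant was tested. Its size comes from other arrays, while its SE and p also use the spread within the wild type groups.

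The RNA came from whole seedlings, kept in liquid MS medium in constant light at 23 °C until 14 days old and then exposed for 30 minutes to chitooctaose at 1 uM (written "um" in the labels) or to water. The 4 groups were wild type Col-0 in water, wild type Col-0 with chitooctaose, and a Col-0 mutant of the chitin receptor under the same 2 treatments, each with 3 arrays titled as biological replicates. Nothing in the labels gives the allele, the number of mutant lines or the number of seedlings pooled per sample, and the receptor's own transcript was not analysed here, so it could not serve as a check of the genotype labels. All values are RNA levels in whole seedlings, in which fewer cells of a type and less RNA per cell cannot be told apart.

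Chitooctaose is a short soluble piece of the fungal cell wall polymer chitin, and plants perceive it through receptor kinases with LysM domains at the cell surface. Within minutes the signal passes through ion fluxes, reactive oxygen and protein kinase cascades to a wave of transcription factor genes. C2H2 zinc finger proteins of the family that STZ belongs to bind DNA through fingers in which a pair of cysteines and a pair of histidines hold a zinc ion, and many of them carry a repressor motif that recruits co-repressors. STZ, also called ZAT10 or salt tolerance zinc finger, is such a repressor, and its transcript is known to accumulate in salt, cold, drought and intense light. The gene table used here gives AT2G28200 no name beyond its locus, and no role is given to it below.

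Each of the 12 arrays gave 1 intensity per probe set for 22746 probe sets that are not controls, with medians from 177.5 to 200.5. Between arrays of the same group, r over all probe sets was 0.984 to 0.993 on the log2 scale. Precision is limited by having 3 arrays per group. Deviations from the group mean were widest on the first replicate of treated wild type (SD over probe sets 0.210, against 0.142 to 0.182 on the other arrays). Of the root markers, 3 of 5 were measured. PYK10 was among the brightest transcripts, at 8831 to 10279 on every array, while EXPA7 and EXPA18 lay between 105.4 and 208.7 and between 356.3 and 674.0. In the annotation used, none of 5 green tissue markers had a probe set tied to 1 gene (0 of 5), so the green part of the seedlings was not checked.

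STZ was high in 1 group and at one low level in the other 3. In wild type water its intensity was 271.2, 274.6 and 261.7 on the 3 arrays. With chitooctaose the wild type arrays read 6189, 6424 and 5581. The chitooctaose arrays stood far above the water arrays, with the lowest 18.5 times the highest of the 9 other arrays of the series. In mutant water the values were 237.2, 289.0 and 301.3, and with chitooctaose they were 235.2, 268.7 and 254.9. These mutant groups overlapped each other and the wild type water group, and replicate 1 was the lowest array of both.

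As group means, STZ stood at 6064 ± 435 (SD, n = 3) in wild type with chitooctaose, 275.9 ± 34.0 in mutant water, 269.1 ± 6.66 in wild type water and 252.9 ± 16.8 in the mutant with chitooctaose (SD, n = 3 each). The first is 22.5 times the wild type water mean. The other 3 neighbours in this order do not differ beyond their spread. Among the probe sets of an array, STZ moved from a middle place to near the top. Between 57.5% and 57.8% of probe sets lay at or below it in wild type water, and between 97.9% and 98.6% in wild type with chitooctaose. In the mutant this share stayed between 55.2% and 60.0% in both treatments.

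AT2G28200 took 4 separate levels. In wild type water its arrays read 581.6, 629.3 and 513.7, and with chitooctaose 136.0, 135.6 and 135.4. The wild type water arrays were the highest of the series and the wild type chitooctaose arrays the lowest. In mutant water the values were 406.0, 410.5 and 418.8, and with chitooctaose 299.7, 306.1 and 328.8. Both mutant groups lay between the wild type groups, and no group overlapped another.

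The group means of AT2G28200 were 574.9 ± 58.1 in wild type water, 411.8 ± 6.47 in mutant water, 311.5 ± 15.3 in the mutant with chitooctaose and 135.7 ± 0.331 in wild type with chitooctaose (SD, n = 3 each). The wild type water mean was 4.24 times that with chitooctaose. In the ranking of probe sets it went from between 74.1% and 76.7% at or below it in wild type water to between 41.8% and 44.2% with chitooctaose. The mutant values were 67.8% to 68.7% in water and 60.8% to 64.7% with chitooctaose. The wild type chitooctaose arrays, which the choice of the gene used, were the closest of its groups, a comparison singled out after the values were seen. Their coefficient of variation was 0.244%, and of 3271 probe sets with a mean from 100 to 200 in that group only 2, AT2G28200 included, were at or below it (0.0611%), against a median of 12.4%.

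**Figure D1:**
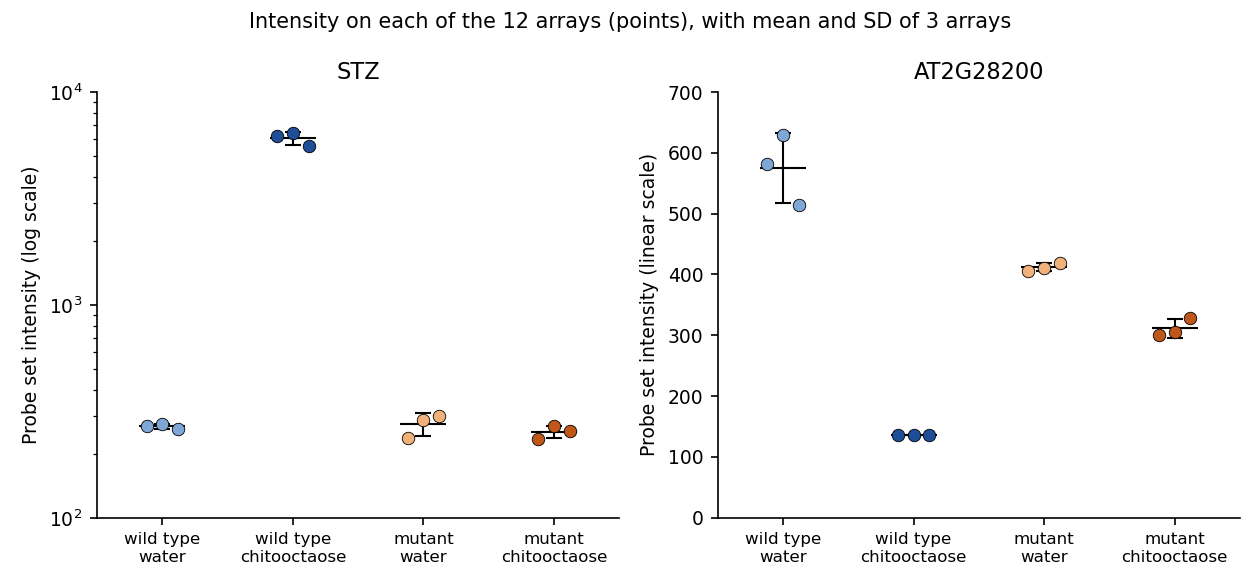
Intensity of STZ (left, log axis) and AT2G28200 (right, linear axis) on each of the 12 arrays, with the mean and SD of each group of 3 as bars. STZ is high only in wild type with chitooctaose (5581 to 6424, against 235.2 to 301.3 on the 9 other arrays), and the 4 groups of AT2G28200 do not overlap.

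In wild type the response, as a difference of mean log2(intensity + 16), was 4.41 ± 0.09 for STZ and -1.96 ± 0.09 for AT2G28200 (± SE of the fit, as below). Added to dim and bright probe sets alike, the 16 makes such differences smaller than the log2 ratio of the intensities. Without the deviating replicate 1 of wild type with chitooctaose these values were 4.40 and -1.96. Among the 22746 probe sets STZ had the 16th largest positive value and AT2G28200 the 9th most negative. The share of probe sets called in this comparison was 18.9%, and the 2 groups did not overlap for 33% of probe sets. Since this contrast chose both genes, nothing is read from these shares.

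In the receptor mutant no response of STZ was detected, and AT2G28200 fell by a small amount. For STZ the difference was -0.11 ± 0.09, with a 95% interval from -0.31 to 0.08 (limma, adjusted p = 0.75 over all 22746 probe sets). On this scale, the interval leaves room for a rise of no more than 0.08, next to 4.41 in wild type. AT2G28200 fell by 0.39 (SE 0.09, 95% interval -0.57 to -0.20, limma adjusted p = 0.033), and its mean in water was 1.32 times that with chitooctaose. All 3 of its mutant chitooctaose arrays lay below all 3 of its mutant water arrays. In this comparison 1.49% of probe sets were called, 0.769% lower, and the 2 groups did not overlap for 18.5%. With 3 arrays against 3 a permutation test cannot give a two-sided p under 0.1, so the p comes from the fit across all probe sets.

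The call of AT2G28200 in the mutant lay close to the threshold. It was lost in 6 of 12 fits without 1 array. Without wild type water replicate 1, which changes only the estimate of the spread, adjusted p was 0.058. Without mutant water replicates 1, 2 and 3 it was 0.096, 0.12 and 0.14, and without mutant chitooctaose replicates 1 and 2 it was 0.15 and 0.11. The size of the difference moved little in these fits, from -0.42 to -0.36.

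**Figure D2:**
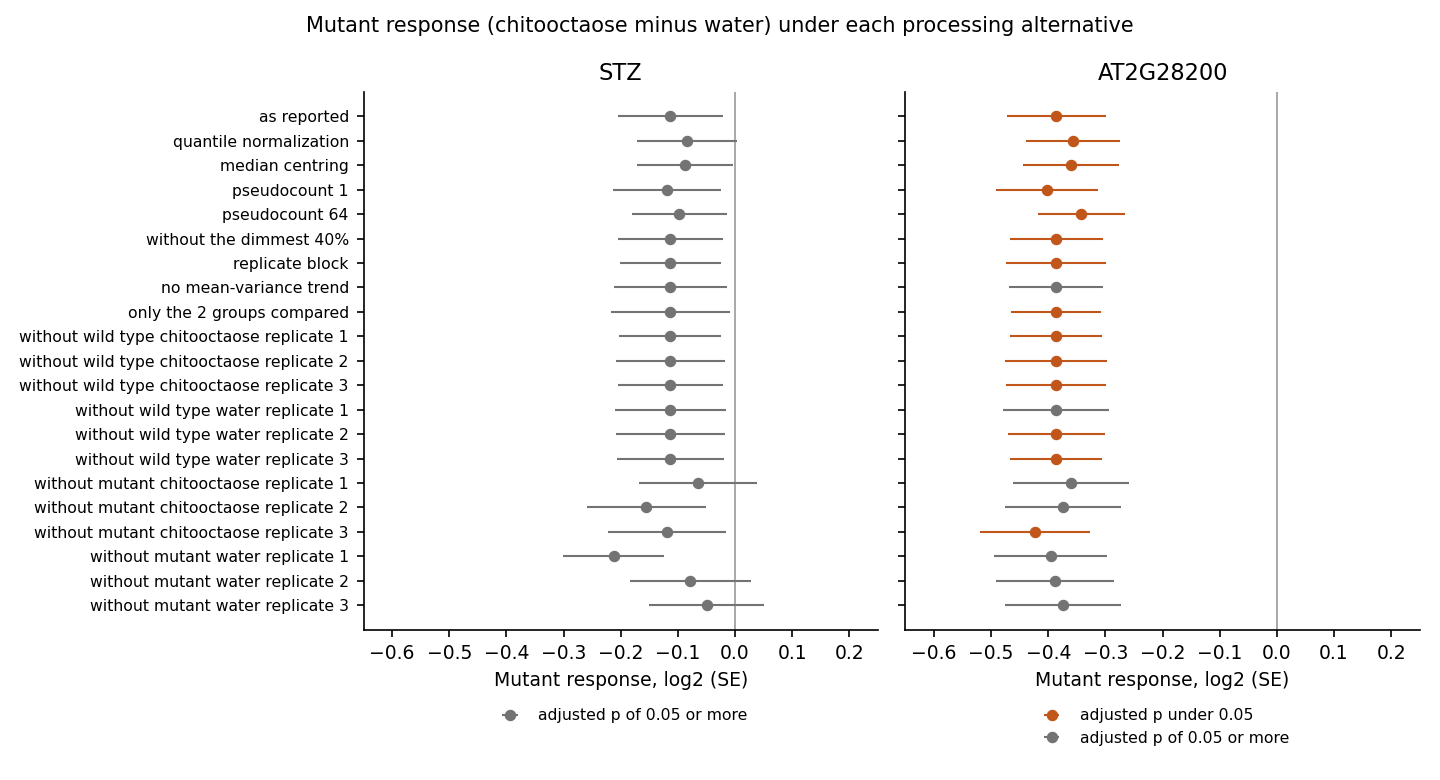
Response of STZ (left) and AT2G28200 (right) to chitooctaose in the mutant, as a difference of mean log2(intensity + 16) with its SE, as reported and under each processing alternative. The colour shows whether adjusted p is under 0.05. For STZ it is not in any setting, and for AT2G28200 the values stay between -0.42 and -0.34 while the call is lost in 7 of 20 alternatives.

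The responses of the genotypes differed by -4.53 ± 0.13 for STZ and by 1.57 ± 0.12 for AT2G28200, taken as mutant minus wild type. The wild type response is part of each of these differences, so they are descriptions. For STZ the genotypes stood apart with chitooctaose and not in water. Mutant minus wild type was 0.03 ± 0.09 in water and -4.50 ± 0.09 with chitooctaose. For AT2G28200 the genotypes stood apart in both treatments, with opposite signs. Mutant minus wild type was -0.46 ± 0.09 in water, where the wild type mean was 1.40 times that of the mutant. With chitooctaose it was 1.11 ± 0.09, and the mutant mean was 2.30 times that of wild type. The genotype comparisons share their wild type arrays with the contrast that chose the genes, so no test is given for them, and nothing is read from the shares of probe sets whose 2 groups did not overlap, 30.9% in water and 28.7% with chitooctaose.

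EXPA7 and EXPA18, expansin genes of root hair cells, moved with AT2G28200 in part. Both were lower with chitooctaose in wild type (-0.57 ± 0.12 and -0.58 ± 0.11) and lower in mutant than in wild type water (-0.65 ± 0.12 and -0.62 ± 0.11). In the mutant their responses were -0.05 ± 0.12 and -0.02 ± 0.11, where AT2G28200 fell by 0.39. PYK10, the other measured root marker, stood at -0.05 ± 0.07 in wild type and -0.01 ± 0.07 between genotypes in water. The summed intensity of the 3 root markers ran from 10330 to 10933 in wild type water, 9422 to 10516 in wild type with chitooctaose, 9863 to 10815 in mutant water and 10034 to 10792 in the mutant with chitooctaose. PYK10 alone read 8831 to 10279, so these sums mostly follow PYK10 and could not show the falls of EXPA7 and EXPA18. The part of root tissue in the levels of AT2G28200 was not tested.

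The spread within groups was compared with that of probe sets of similar level. Pooled over the 4 groups, the SD on the log2 scale was 0.112 for STZ and 0.080 for AT2G28200. Among the 500 probe sets nearest to each in mean level, the median SD was 0.113 and 0.116, and 49.4% and 13.8% of them were at or below the member's SD. The pooled value of AT2G28200 rests on uneven groups, with SDs of 0.144 in wild type water, 0.003 in wild type with chitooctaose, 0.022 in mutant water and 0.067 in the mutant with chitooctaose.

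The order of groups that AT2G28200 showed was looked for in all probe sets, and 34 of 22746 (0.149%) had wild type water above mutant water, mutant water above mutant chitooctaose and that above wild type chitooctaose, with no overlap at any step, and 30 (0.132%) had the reverse order. The order was taken from AT2G28200 itself, and its ends are the wild type values that chose the gene, so nothing is read from this share. AT2G28200 kept this order under quantile normalization, when 39 probe sets had it, 20 of them among the first 34, and under median centring, when 34 had it, 23 of them among the first 34. Of the 34, 18 are tied to 1 gene. Those with the most negative wild type values were AT2G20670 and AT3G07350, both genes of DUF506 proteins, and AT5G39520. AT3G07350 had means of 1505 ± 15.8, 1201 ± 65.9, 664.9 ± 25.7 and 397.7 ± 19.0 (SD, n = 3 each) in that order. Its mutant response was -0.84 ± 0.07, against -0.39 ± 0.09 for AT2G28200, beside wild type values of -1.88 ± 0.07 and -1.96 ± 0.09. AT5G39520 went from 385.5 ± 12.7 through 153.3 ± 10.2 and 121.4 ± 10.9 to 67.6 ± 10.4 (SD, n = 3 each). Its mutant response of -0.30 ± 0.11 was not called (limma adjusted p = 0.28). Of the 17 single-gene probe sets in this order other than AT2G28200, 4 were called lower in the mutant, against 0.769% of all probe sets. The order itself requires a lower mutant level with chitooctaose, so nothing is read from this count.

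STZ shared its order of groups with other probe sets. On 1686 probe sets (7.41%) all wild type chitooctaose arrays lay above all 9 other arrays. On 24 of them (0.106%) each of these arrays was over 16 times every other array, and STZ was 1 of the 24. The wild type values chose STZ, and the 16-fold limit was set with its own 18.5-fold gap known, so nothing is read from its place in these counts.

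Genes with the most similar patterns were found by Pearson's r over the 12 arrays on the log2(intensity + 16) scale, among 10307 other genes' probe sets with a group mean of at least 50. The arrays fall into the same 4 groups for every gene, so r mostly follows the group means, and it is given as a description. For STZ the 5 most similar genes had r from 0.9970 to 0.9991. They were AT4G27280, AT1G66090 of the TIR-NBS class, AT1G58420, the acetyltransferase gene AT2G32030 and HEMA2, which codes for glutamyl-tRNA reductase, the first committed enzyme of tetrapyrrole synthesis. AT4G27280 stood at 652.6 ± 16.7, 7485 ± 302, 684.9 ± 30.7 and 638.9 ± 40.6 (SD, n = 3 each) in wild type water, wild type with chitooctaose, mutant water and mutant with chitooctaose. HEMA2 shared the shape and not the size. It stood at 406.4 ± 8.47, 1281 ± 116, 403.6 ± 16.9 and 399.7 ± 21.4 in the same groups (SD, n = 3 each), a wild type response of 1.62 ± 0.08. The mutant responses of the 5 genes lay between -0.16 and 0.10.

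Of the 10307 candidates, 291 had r over 0.95 with STZ (2.82%) and 22 with AT2G28200 (0.213%). The wild type values that chose both genes enter r, so nothing is read from these counts. The 5 most similar to AT2G28200 were AT2G20670 (r = 0.9865), AT5G60680 (0.9836), the AGC kinase gene WAG2 (0.9786), AT4G28240 (0.9759) and AT5G62280 (0.9754). All of them were highest in wild type water and lowest in wild type with chitooctaose, and intermediate in the mutant. AT2G20670 went from 2493 ± 133 in wild type water through 1630 ± 116 in mutant water and 1037 ± 111 in the mutant with chitooctaose to 403.4 ± 70.5 in wild type with chitooctaose (SD, n = 3 each). Its mutant response was -0.65 ± 0.11, and the other 4 lay between -0.12 and -0.01. WAG2 came closest to AT2G28200 in wild type, at -1.86 ± 0.10, but had -0.09 ± 0.10 in the mutant. By Spearman's rho in place of r, none of the 5 genes named for either member stayed among its 5 most similar (0 of 5 for each). For STZ at least 5 genes, AT3G57630 among them, tied at the highest rho of 0.944, and for AT2G28200 the highest belonged to AT3G14280 (0.993).

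**Figure D3:**
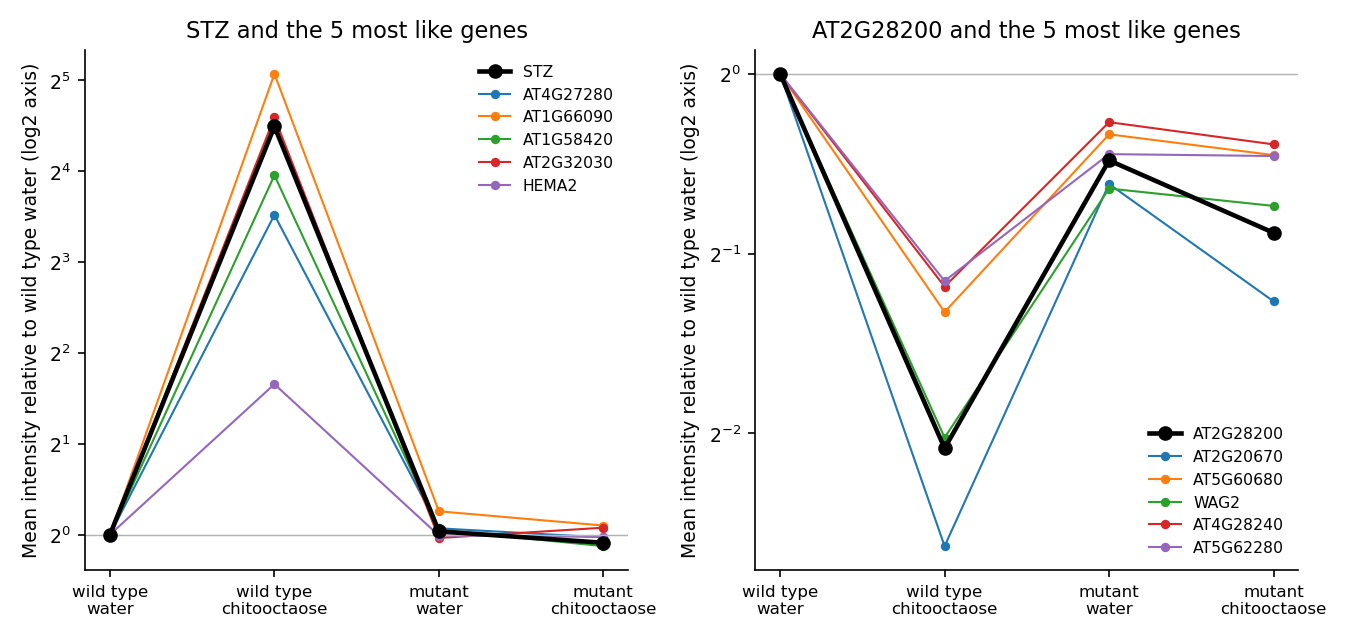
Mean intensity relative to wild type water (log2 axis) in the 4 groups for STZ (left, black) and AT2G28200 (right, black), each with the 5 genes of highest Pearson's r over the 12 arrays. The genes beside STZ lie near the wild type water level in both mutant groups, with HEMA2 the smallest increase, and the genes beside AT2G28200 lie below that level in mutant water as well.

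The other C2H2 zinc finger genes measured are given as context for the pair. The lists hold 67 C2H2 genes, of which 28 were measured. The rest had no probe set of their own in the annotation used, so the counts do not describe the whole family. Of the 26 other than STZ and AT2G28200, limma called 0 higher and 2 lower in wild type, and 3 passed an unadjusted p of 0.05, where 8.82% of all probe sets were called higher and 10.1% lower. Their median was 0.00, against -0.04 for all probe sets, and their values ran from -0.48 to 0.38. In the mutant limma called 0 of 26, and 1 passed an unadjusted p of 0.05, where 1.49% of all probe sets were called. Their median there was -0.07, against -0.03 for all probe sets. Most of the 26 were dimmer than the array medians, and with so few genes nothing is read from these counts.

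STZ and AT2G28200 belong to a list of ZAT-type genes, proteins with separated fingers. Of its 31 members 17 were measured. None of the other 15 was called in wild type (limma, 0 of 15, and 0 at an unadjusted p under 0.05), where 18.9% of all probe sets were called. Their median was 0.03 in wild type and -0.08 in the mutant, against -0.04 and -0.03 for all probe sets. Most were dim. AT3G53600 and AT5G61470 stood at 19.8 ± 2.56 and 18.9 ± 9.49 in wild type water (SD, n = 3 each), and no mean of AT3G60580, AT2G45120, AT3G10470, AT1G26610 or AT4G16610 exceeded 92.7 in any group. AT5G56200 and AT1G26590 did not exceed 92.7 either. Both, and AT5G03510, AT2G28710, AT3G49930, AT1G49900 and AT2G26940, had wild type differences between -0.27 and 0.37.

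AT5G04390 was the 1 gene of these 15 whose response differed between genotypes (mutant minus wild type -1.12 ± 0.27, limma adjusted p = 0.011, in a comparison where 11.3% of probe sets were called). Its intensity was 108.2 ± 7.97 in wild type water, 153.1 ± 57.7 in wild type with chitooctaose, 155.9 ± 8.38 in mutant water and 87.1 ± 8.57 in the mutant with chitooctaose (SD, n = 3 each). The call of this difference held in all 12 fits without 1 array and in the 7 other alternatives (limma adjusted p from 3.4e-06 to 0.037). Mutant minus wild type was -0.65 ± 0.19 with chitooctaose (limma adjusted p = 0.027, where 17.3% of probe sets were called). In water it was 0.47 ± 0.19 (limma adjusted p = 0.16). Neither single response was called, with 0.38 ± 0.19 in wild type (adjusted p = 0.2) and -0.74 ± 0.19 in the mutant (limma adjusted p = 0.074). Quantile normalization, median centring, a fit of the mutant groups alone and leaving out wild type chitooctaose replicate 1 each brought the mutant value past the threshold, with adjusted p from 0.00057 to 0.26 over all alternatives.

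Both C2H2 genes called in wild type are on the list of INDETERMINATE DOMAIN genes, of which 5 of 17 were measured. Both were called lower, where 10.1% of all probe sets were called lower. AT1G14580 fell by 0.48 (SE 0.11, limma adjusted p = 0.0043), from 276.5 ± 38.7 to 192.5 ± 16.7, and JKD (JACKDAW), a regulator of cell patterning in the root, fell by 0.37 (SE 0.10, limma adjusted p = 0.019), from 213.0 ± 9.39 to 161.7 ± 4.29 (SD, n = 3 each). The call of JKD was lost without wild type water replicate 2, at adjusted p = 0.084. JKD was also lower in mutant than in wild type water, by -0.43 ± 0.10 (limma adjusted p = 0.012, where 10.3% of probe sets were called). AT3G45260 of the same list went the other way between genotypes. It was higher in the mutant with chitooctaose, by 0.44 ± 0.11 (limma adjusted p = 0.0075, where 17.3% of probe sets were called). In water its difference of 0.32 ± 0.11 was not called (limma adjusted p = 0.069). Of the 6 single-finger genes measured, GIS, RBE, JAG, NUB, TAC1 and AT5G01860, none was called in either genotype (limma, 0 of 6, and 0 at an unadjusted p under 0.05), where 18.9% of all probe sets were called in wild type and 1.49% in the mutant, and no mean exceeded 57.3.

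**Figure D4:**
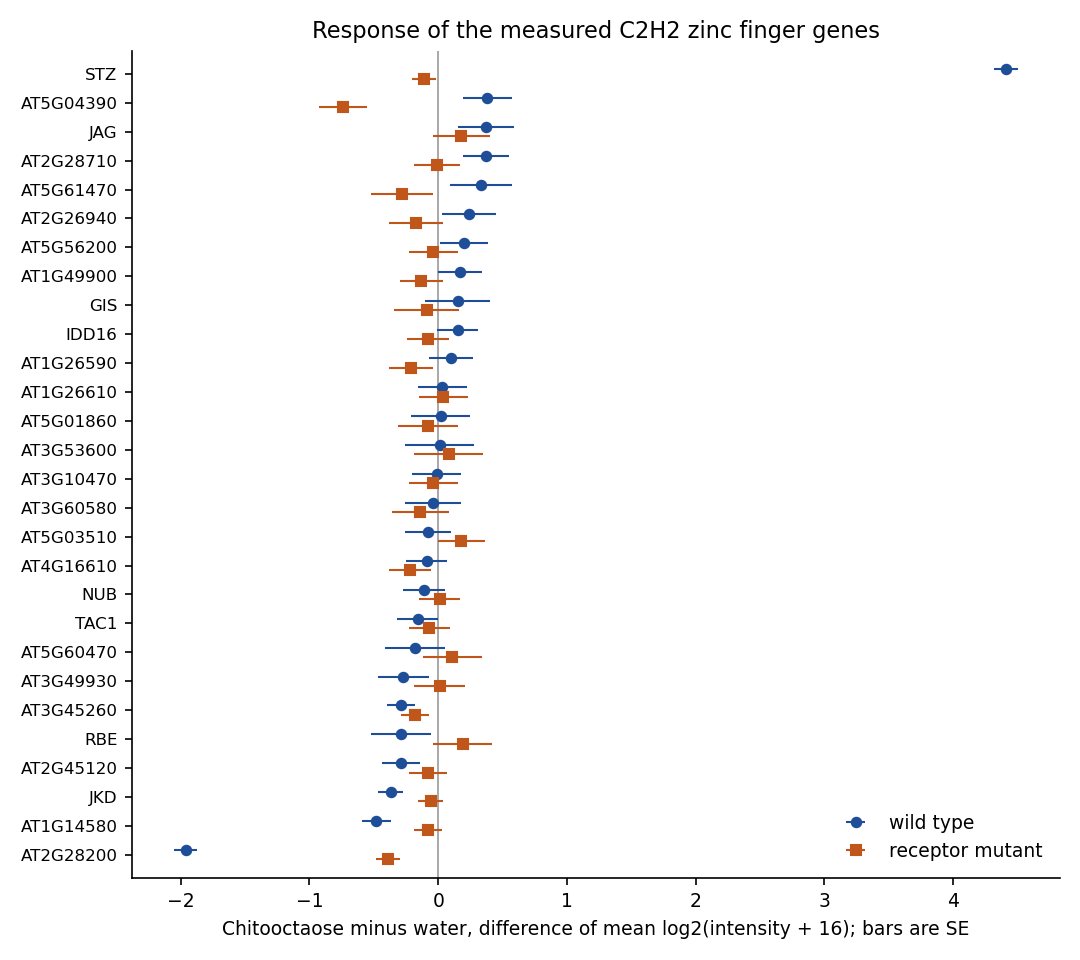
Difference of mean log2(intensity + 16) between chitooctaose and water for the 28 measured C2H2 zinc finger genes, in wild type (circles) and the receptor mutant (squares), with SE bars. In wild type STZ lies at 4.41 and AT2G28200 at -1.96, and the other 26 lie between -0.48 and 0.38. The pair was chosen on its wild type response, so nothing is read from its distance to the others.

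Of 11 stress genes linked to STZ in earlier work on altered STZ levels, 2 were measured, both of the cold-regulated class. COR15A, whose protein protects chloroplast membranes in the cold, rose in wild type by 0.92 ± 0.12 (limma adjusted p = 2.1e-05), from 83.5 ± 7.79 to 172.4 ± 19.3 (SD, n = 3 each). In the mutant it stood at 171.5 ± 19.5 in water and 170.4 ± 20.0 with chitooctaose (SD, n = 3 each), a response of -0.01 ± 0.12. Whether the level of STZ has a part in that of COR15A was not tested. COR47, a dehydrin gene, was not called in wild type (-0.20 ± 0.09, limma adjusted p = 0.15) or in the mutant (-0.13 ± 0.09, adjusted p = 0.69). Between genotypes COR15A was higher in mutant water by 0.91 ± 0.12 (limma adjusted p = 6.4e-05), and COR47 was lower in the mutant, by -0.37 ± 0.09 in water (adjusted p = 0.015) and by -0.30 ± 0.09 with chitooctaose (adjusted p = 0.033), where 10.3% and 17.3% of probe sets were called. The lists of CCCH zinc finger genes (8) and of co-repressors and kinases that act with STZ-type repressors (11) were not analysed here. The annotation, which leaves 8730 of 22746 probe sets unnamed, ties none of their members to a probe set of its own.

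Of the nearest measured genes on the chromosome, none was called in wild type (limma, 0 of 4, with 1 past an unadjusted p of 0.05), where 18.9% of all probe sets were called. With 4 genes, nothing is read from this count. In the order of the gene table, AT1G27700 lies 3 genes before STZ and SAT32 lies 4 genes after it. Their wild type differences were 0.05 ± 0.08 (limma adjusted p = 0.70) and -0.15 ± 0.07 (adjusted p = 0.14). AT2G28130 and AT2G28240, 8 genes before and 7 after AT2G28200, had 0.03 ± 0.09 (limma adjusted p = 0.89) and -0.35 ± 0.19 (adjusted p = 0.22). Between genotypes AT2G28130 was higher in mutant water, by 0.31 ± 0.09 (limma adjusted p = 0.047), where 10.3% of probe sets were called. SAT32 was higher in the mutant with chitooctaose, by 0.24 ± 0.07 (limma adjusted p = 0.017), where 17.3% were called. No other genotype difference of the 4 genes was called.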

How the data were processed

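Biotin-labelled cRNA from 8 ug of total RNA was hybridised to 12 one-colour Affymetrix arrays, per the labels' protocols. The deposited table holds a linear intensity for every probe set and array, and the authors' summarisation and scaling are not given in the sources used here. Of 22810 rows 64 control probe sets were left out. Values were used unscaled as log2(intensity + 16), and 1 mean per group was fitted over all 12 arrays (limma 3.58.1, R 4.3.3, lmFit and eBayes with a mean-variance trend), with Benjamini-Hochberg adjustment over 22746 probe sets, two-sided, threshold 0.05. The platform annotation ties 13513 probe sets to 1 gene, of which 13436 matched the gene table (TAIR10.1), used for names and gene order only. It ties 503 probe sets to several genes and leaves 8730 unnamed, and a gene is called measured only where at least 1 probe set is tied to it alone. Where a gene had several such probe sets, the brightest stood for it.

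The 2 members and the 6 gene lists were chosen with earlier results of these data known. All measured ZAT-type genes are named, with up to 4 called members of other lists (or the 2 of lowest p), the 5 genes of highest r per member and the nearest measured neighbours. Genes named for their group order, the single-finger genes and AT3G45260 were chosen after their values were seen. The scripts were tested on simulated data. The alternatives tried were median centring or quantile normalization, a pseudocount of 1 or 64, dropping the dimmest 40%, the replicate number as a block, no trend, only the groups compared and leaving out each array. Same-numbered arrays of different groups deviated from their group means with r from -0.129 to 0.223, over 0.1 in 6 of 18 pairs. Arrays of different number were not compared in this way, so these values do not decide whether the numbers are pairs. The reported fit did not take them as pairs, and the block is given among the alternatives.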

Additional observations from a re-analysis of the deposited data

Results flagged for a closer look

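Both genes responded differently in the genotypes. The difference of responses, mutant minus wild type on the log2 scale, was -4.53 for STZ and 1.57 for AT2G28200. Because the wild type response chose both genes, no test of these differences is given.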

How the results depend on the processing

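All alternatives kept the direction of the wild type response, the difference of responses and the genotype difference with chitooctaose for both genes. In water the genotype difference of STZ, reported as 0.03, ran from -0.04 to 0.13 in fits without 1 array, and that of AT2G28200 from -0.54 to -0.40. A pseudocount of 64 in place of 16 moved several values by more than the spread between arrays. The wild type response became 4.20 for STZ and -1.67 for AT2G28200, the difference of responses -4.30 and 1.33, and the genotype difference with chitooctaose -4.27 and 0.91. A pseudocount of 1 moved the last of these to 1.19 for AT2G28200. The mutant response of STZ was not called in any of 20 alternatives (adjusted p from 0.47 to 0.95). For AT2G28200 the mutant response ran from -0.42 to -0.36 in the 12 fits without 1 array, 6 of which lost the call (adjusted p from 0.014 to 0.15). The call was also lost without a mean-variance trend (-0.39, adjusted p = 0.065), and the cause was not tested. With the replicate number as a block it held, at -0.39 with adjusted p = 0.046, and STZ stayed at -0.11 with adjusted p = 0.70. These were the only calls of the 2 genes that were tested, and the block changed neither. In the mutant comparison 339 probe sets were called, against 675 under quantile normalization, 672 under median centring, 193 without the trend and 155 to 671 in fits without 1 array. The 3 arrays per group limit how well small mutant responses can be seen, and dim C2H2 genes near the bottom of the intensity range carry larger errors.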
